A study of Mus musculus with 16 samples.

Results

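The hearts described here came from mice whose cardiomyocytes lack PPARα (PPARα-deficient), and the question was what endotoxin did to their transcripts. The members are the 4 libraries of PPARα-deficient hearts given lipopolysaccharide (LPS) and the 4 given phosphate-buffered saline (PBS), 8 of the 16 libraries of the series, taken by their labels. All mice were male, on the C57BL/6J background and aged 8 to 12 weeks, and the labels do not say in so many words that each library is a separate heart. LPS was injected into the peritoneum at 5 mg/kg, and heart tissue was taken 12 h later. The other libraries came from mice with floxed Ppara alleles and no deletion (Ppara-flox), 4 given PBS and 4 given LPS. Their levels are given below only where the genotypes are compared. They also entered the gene filter, the scaling and the shared estimate of spread behind every call. The labels do not name the Cre line or the promoter that drives it, and no group carried Cre without floxed alleles. Effects of the deletion and of Cre therefore cannot be told apart. A heart also holds vessels, fibroblasts and immune cells, which keep their Ppara in a deletion limited to cardiomyocytes.

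LPS is a molecule of the outer wall of Gram-negative bacteria. It is carried by LBP to CD14 and the receptor TLR4, which switches on NF-kB and, through interferon-regulatory factors, type I interferon. Septic hearts lose contractile force and change their use of fuels. PPARα is the nuclear receptor that switches on genes of fatty acid uptake and oxidation, and with PGC-1α and the estrogen-related receptors it maintains the high oxidative capacity of cardiomyocytes.

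Levels are CPM, the estimated counts scaled to library sizes after TMM factors, given for replicates 1, 2, 3 and 4 in that order. Fold changes are log2 values, LPS minus PBS, comparing 4 libraries with 4, each with its standard error (SE). Fold changes, SE and adjusted p-values come from edgeR's quasi-likelihood test on a single fit of all 16 libraries. The adjustment was Benjamini-Hochberg over all 18713 genes tested. A gene is called higher or lower, or is said to have risen or fallen, where the adjusted p was under 0.05. The 8 libraries held 68725747 to 74670633 estimated counts each, or 17181437 to 18667658 when a read pair is taken as 4 counts. Of a library's counts 23.84% to 29.8% lay in mitochondrially encoded genes. The tissue label fits the markers: Myh6, the main cardiac myosin heavy chain gene of the adult mouse, was at 18368 to 21521 CPM after LPS and higher after PBS, and the islet genes Ins1, Ins2 and Gcg, checked because the labels' extraction text speaks of islets, had no counts. The atrial genes Sln and Myl7 did not exceed 0.224 CPM.

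The targeted gene Ppara (chromosome 15, 85734983 to 85802819 of GRCm38) was found at 11.4, 17.6, 15.1 and 14.2 CPM after PBS and 4.25, 6.32, 11.9 and 9.45 CPM after LPS. These groups overlap, since LPS replicate 3 lies above the lowest PBS library. Ppara fell by 0.87 ± 0.27 SE on the log2 scale (adjusted p = 0.0188), a call that was lost without PBS replicate 2 (adjusted p = 0.0563), LPS replicate 1 (0.0542) or LPS replicate 2 (0.06). The counts do not separate transcripts with the deleted exons from those without, nor cardiomyocytes from other cells.

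LPS changed a large part of the transcriptome of these hearts. Of the 18713 genes tested 3632 rose (19.4%) and 3429 fell (18.3%), with a median log2 fold change of 0.01 over all genes. At least 2-fold changes numbered 1432 higher (7.65%) and 1352 lower (7.22%). Among the called genes 89 higher genes had no count in any PBS library and 54 lower genes none in any LPS library, and 357 and 357 averaged under 1 CPM. Genes that rose held 10.9% of the counts after PBS and 20.7% after LPS, and genes that fell went from 29.9% to 18.6%. The first principal component, computed on the 1000 most variable genes and holding 60.8% of their variance, separated the PBS from the LPS libraries.

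**Figure D1:**
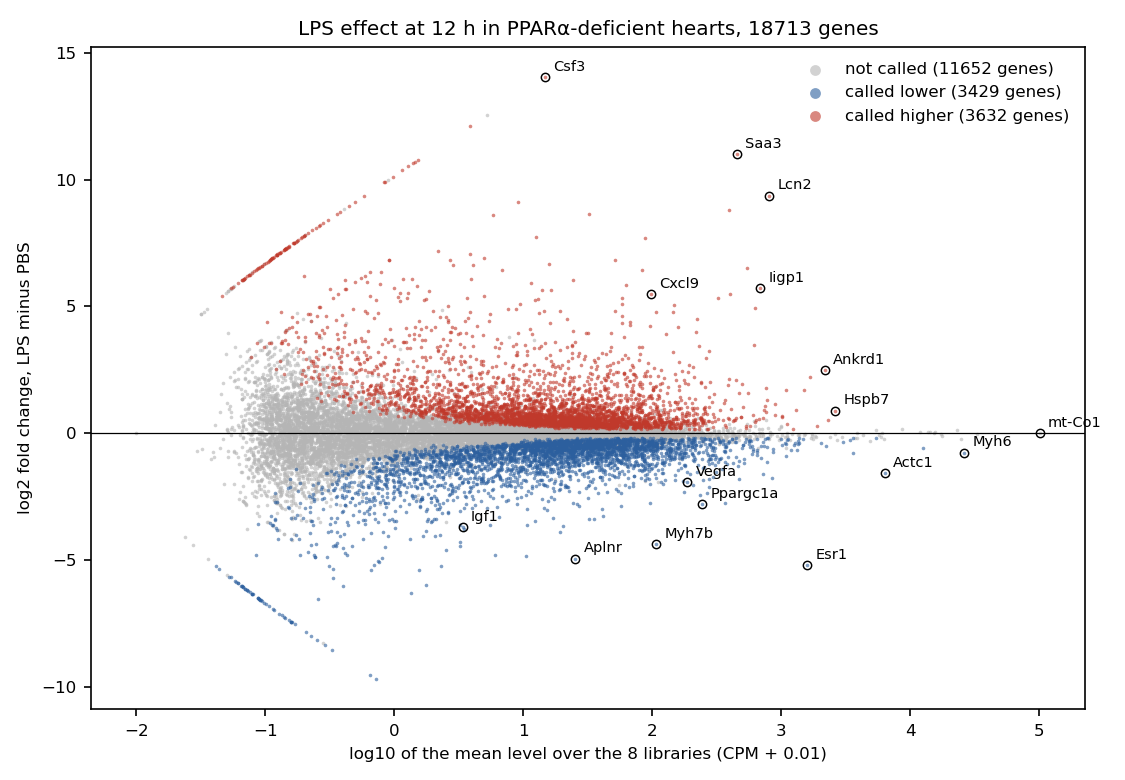
Log2 fold change after LPS (vertical axis) against the log10 of the mean CPM over the 8 PPARα-deficient libraries (horizontal axis), 1 point per tested gene, red where called higher, blue where called lower and grey where not called. Lcn2 and Saa3 lie far above 0 at high levels, Esr1 far below, and mt-Co1, the gene with the highest level of those labelled, at 0; the straight rows of points at the left are genes with no count in one group.

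The 4 LPS libraries did not all look alike. Replicate 3 stood apart on the second component (8.4% of the variance), at 42.86 against -21.02 to -2.74 in the other 3. It held the highest LPS level of 335 of the 756 genes that rose at least 2-fold and averaged at least 2 on the log2 CPM scale. Replicate 4 held the highest for only 74 of them. Of the 675 genes that fell by as much, replicate 4 kept the highest LPS level for 400, against 77, 62 and 136 for replicates 1, 2 and 3. On the first component replicate 4 lay at 43.99, nearer to the PBS libraries than the other LPS libraries, at 52.01 to 54.53. Among the PBS libraries, replicate 4 had the highest levels of several inflammatory genes and of neutrophil markers, given below. The numbers in the table headers run from 957 to 1075 after PBS and from 1739 to 1769 after LPS over both genotypes. After PBS, replicates 1 and 2 carry 957 to 971 and replicates 3 and 4 carry 1069 to 1075. The labels do not say what these numbers mean. Whatever they follow cannot be told apart from the treatment.

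Several genes of LPS sensing and of the brakes on NF-kB rose, while the receptor gene Tlr4 and the p50 gene Nfkb1 were not called. Of 19 tested genes of TLR4 sensing 9 rose and 1 fell, with a median log2 fold change of 0.80, beside 19.4% and 18.3% and a median of 0.01 over all genes. The same shares are the background of every list below, and the smaller count of several lists lies near them. Lbp, the plasma carrier that hands LPS to CD14, lay at 4.21, 4.69, 6.06 and 6.09 CPM after PBS and 39.0, 29.9, 31.0 and 37.4 CPM after LPS. Every LPS library was above every PBS library, and the rise was 2.70 ± 0.15 SE (adjusted p = 2.73e-09). Myd88, the adaptor of most Toll-like receptors, rose by 1.80 ± 0.14 SE, and Irak3, an inhibitor of the same complex, by 2.36 ± 0.12 SE. Tlr4 itself was not called, at 13.1, 14.7, 14.8 and 12.6 CPM after PBS and 11.1, 2.32, 3.83 and 11.1 CPM after LPS, with replicates 2 and 3 well below the rest after LPS. Of 20 genes of NF-kB and its feedback 13 rose and 1 fell (median 1.10). Nfkbia, which encodes the inhibitor IκBα, went from 22.8, 30.6, 20.4 and 20.4 CPM to 128, 121, 122 and 104 CPM (2.33 ± 0.15 SE, adjusted p = 8.70e-09). Tnfaip3, encoding the ubiquitin-editing inhibitor A20, was found at 3.81, 3.13, 3.97 and 3.96 CPM after PBS and 26.2, 43.5, 52.5 and 36.2 CPM after LPS. The groups were far apart in both genes. Nfkb1, the gene of the p50 subunit, was at 40.6, 47.4, 40.3 and 42.2 CPM after LPS against 45.7, 45.2, 39.2 and 47.8 CPM after PBS and was not called (-0.06 ± 0.08 SE).

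Genes of secreted attractants and growth factors for white blood cells rose from very low levels, and 2 ligand and receptor genes of resident cells, Cxcl12 and Cx3cr1, fell. CXC chemokines, which draw neutrophils or T cells, had 11 of 14 members higher and 1 lower (median 4.31). Cxcl9, a T cell attractant induced by interferon gamma, lay at 4.51, 3.97, 5.03 and 3.29 CPM after PBS and 241, 284, 159 and 77.7 CPM after LPS. LPS replicate 4 was the lowest LPS library yet far above the PBS libraries, and the gene rose by 5.50 ± 0.41 SE (adjusted p = 3.63e-08). Cxcl10, of the same receptor, was at 0.303, 0.417, 0.553 and 0.201 CPM after PBS and 21.5, 25.4, 39.0 and 4.96 CPM after LPS (5.94 ± 0.68 SE, and 5.34 with PBS replicate 4 and LPS replicate 3 both left out). Replicate 4 was the lowest LPS library here too. The neutrophil attractant Cxcl1 was at 0.248, 0.457, 1.26 and 4.18 CPM after PBS and 20, 35.7, 35.2 and 32.3 CPM after LPS, with PBS replicate 4 the highest PBS library. Cxcl12, the stromal ligand of CXCR4, was the member that fell, from 138, 139, 129 and 180.1 CPM to 40.8, 44.2, 46.1 and 39.7 CPM (-1.78 ± 0.18 SE). Cxcr4, the gene of that receptor, fell too, by 2.79 ± 0.21 SE. Cx3cr1, the fractalkine receptor of resident macrophages and patrolling monocytes, went from 1.73, 1.37, 3.5 and 6.46 CPM to 0.0924, 0.263, 0.232 and 0.307 CPM. Of the CC chemokines 8 of 15 rose and 2 fell, Ccl6 and Ccl24, both attractants of myeloid cells, and 5 rose where a gene had to reach 1 CPM in 4 libraries to be tested. Ccl5, a T cell and monocyte attractant, rose from at most 0.202 CPM to 11, 21.4, 49.8 and 16.8 CPM.

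Csf3 encodes G-CSF, which drives the production of neutrophils, and had no count in any PBS library and 28.8, 37.4, 30.2 and 20.6 CPM after LPS. With 12 estimated counts, or 3 read pairs, as the limit that a PBS library without counts allows, the mean was at least 176-fold higher. In the interleukin-1 and TNF list 12 of 21 members rose (median 1.04). They included antagonists. Il1rn, the interleukin-1 receptor antagonist, was found at 0.0550, 0, 0.443 and 1.64 CPM after PBS and 13.1, 18.6, 20.3 and 21.1 CPM after LPS. Il1b, the cytokine it opposes, was not called at 0.765, 1.26, 2.47 and 2.05 CPM after LPS against 0.935, 0.229, 0.705 and 2.54 CPM, and was called higher without PBS replicate 4 (adjusted p = 0.0456). PBS replicate 4 was the highest PBS library in both. Among JAK-STAT genes 10 of 22 rose and 4 fell, the latter a share near the 18.3% of all genes. Stat3, which carries interleukin-6 signals, rose from 123, 161, 145 and 175 CPM to 486, 429, 491 and 388 CPM (1.57 ± 0.12 SE, adjusted p = 3.62e-08). The feedback inhibitor gene Socs3 was at 6.26, 5.93, 8.70 and 32.2 CPM after PBS and 104, 90.7, 104 and 111 CPM after LPS. Its PBS replicate 4 lay several-fold above the other PBS libraries and below all LPS libraries. Without it the log2 fold change went from 2.95 to 3.88 for Socs3, from 4.33 to 5.56 for Cxcl1 and from 4.76 to 6.26 for Selp, described with the vessels. Lifr, the receptor gene for leukaemia inhibitory factor, fell by 1.72 ± 0.43 SE.

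Interferon-stimulated genes rose nearly without exception, and the libraries differed in how far. Antiviral genes rose in 34 of 36 cases (median 2.38), guanylate-binding proteins and immunity-related GTPases in 16 of 18 (median 3.41), and MHC class I with the immunoproteasome in 20 of 20 (median 2.25). Ifit3, which blocks viral RNA translation with its partners, lay at 13.7, 8.47, 10.9 and 7.30 CPM after PBS and 97.1, 154, 603 and 262 CPM after LPS. LPS replicate 3 was by far the highest and replicate 1 the lowest LPS library, with no overlap with PBS (4.79 ± 0.63 SE, adjusted p = 1.44e-05, and 4.08 without LPS replicate 3). Isg15, a ubiquitin-like modifier, had the same order with replicate 3 on top, at 21.4, 29.4, 142 and 44.2 CPM after LPS and 3.36, 5.99, 3.76 and 2.21 CPM after PBS. Rsad2, encoding viperin, was found at 23.5, 19.3, 30.9 and 22.7 CPM after PBS and 54.2, 66.5, 303 and 60.6 CPM after LPS, with replicate 3 several-fold above the rest. Without replicate 3 the log2 fold change went from 2.33 to 1.33 for Rsad2 and from 3.95 to 3.05 for Isg15, both still called. Irf7, the factor that amplifies interferon transcription, went from 14.1, 9.23, 7.76 and 7.71 CPM to 99.3, 122, 314 and 199 CPM. Oas2 was not called, at 23.1, 25.6, 25.1 and 16.6 CPM after LPS against 29.6, 19.4, 18.5 and 20.9 CPM after PBS.

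GTPases known as targets of interferon gamma, and Irf1, were lowest in another LPS library. Iigp1, an immunity-related GTPase that attacks the vacuoles of intracellular microbes, was at 31.7, 18.9, 30.9 and 20.7 CPM after PBS and 1370.4, 1615, 1733 and 633 CPM after LPS. Replicate 4 had the lowest LPS value and was still many-fold above the PBS libraries (5.71 ± 0.35 SE, adjusted p = 4.80e-09). Igtp, another GTPase of that family, showed 811, 842, 1080.3 and 419 CPM after LPS and 16.1, 12.2, 23.1 and 18.3 CPM after PBS. Irf1, an interferon-regulatory factor, was at 23.6, 15.6, 16.5 and 19.5 CPM after PBS and 81.3, 73.1, 58.7 and 25.5 CPM after LPS, so that LPS replicate 4 was barely above the highest PBS library (1.67 ± 0.26 SE, adjusted p = 7.39e-05). The mean log2 CPM of the guanylate-binding list was 5.59 in LPS replicate 4 against 6.35, 6.78 and 7.13 in replicates 1, 2 and 3. For the antiviral list it was 6.10 in replicate 3 against 4.86, 5.12 and 5.08 in replicates 1, 2 and 4. Genes of these families are close copies in places, and reads shared between copies make single values uncertain.

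Antigen presentation split by class. B2m, the light chain of MHC class I, rose from 184, 154, 193 and 144 CPM to 545, 628, 1080.0 and 655 CPM (2.11 ± 0.22 SE). Tap1, which pumps peptides into the endoplasmic reticulum, was at 10.4, 7.95, 8.09 and 6.59 CPM after PBS and 119, 120.0, 159 and 55.6 CPM after LPS. Psmb8, an inducible proteasome subunit, was at 8.15, 8.55, 9.81 and 6.66 CPM after PBS and 56.0, 62.1, 84.4 and 45.4 CPM after LPS. All LPS libraries were above all PBS libraries in these 3 genes. MHC class II went the other way, with 5 of 10 members lower and 1 higher, Ctss (0.67 ± 0.15 SE), the lysosomal protease that trims the invariant chain. H2-Aa fell from 66.6, 35.8, 54.5 and 36.2 CPM to 13.1, 15.9, 31.5 and 7.91 CPM (-1.50 ± 0.31 SE, and -2.09 with PBS replicate 4 and LPS replicate 3 both left out), the LPS libraries lying below the PBS libraries. Ciita, the master activator of class II genes, was not called (0.11 ± 0.40 SE).

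Letters that match the binding motifs of these factors stood before several of the genes that rose. RefSeq promoter windows on GRCm38.p6, from 250 bases before to 50 after a start, were at hand for 12305 of the tested genes and were searched on both strands. The core of the interferon-stimulated response element, GAAANNGAA, which interferon-regulatory factors bind, occurred in 14.3% of the 1227 windows of genes that rose at least 2-fold. It occurred in 5.44% of the 1213 windows of genes that fell as much. The share was 7.38% of the 15632 windows of all tested genes and 8.56% of all 32851 windows. The kB core GGGANTTTC, bound by NF-kB, was in 3.34%, 0.742%, 1.01% and 1.11% of the same windows in that order. The STAT motif TTCNNNGAA was in 9.7%, 6.84%, 6.99% and 8.3%, so that genes that fell lay near all tested genes. By list, the interferon core was in 16 of 30 windows of antiviral genes and in 9 of 11 of the GTPases, and the kB core in 4 of 11 of the CXC chemokines and 4 of 21 of the NF-kB genes. The interferon and STAT motifs can overlap in their letters. A match is a description of the sequence, and binding was not measured. The stretches below lie before the start of genes that rose, are written on the gene's strand and carry the matches, on either strand, in capitals. In Ifit1, Isg15, Igtp and B2m the capitals mark interferon cores, with a STAT motif also in Igtp and a kB core also in B2m. They mark STAT motifs in Irf1 and Icam1 and kB cores in Cxcl1, Cxcl2 and Nfkbia. Irf1 has a second window, whose stretch at 53770358 to 53770417 held no match and is not printed. The stretches printed all carry matches, while other genes that rose, such as Irf7 and Lcn2, had none of these 3 motifs. Matches that overlap run together.
Ifit1, chr19:34640764-34640823, plus strand, GRCm38.p6: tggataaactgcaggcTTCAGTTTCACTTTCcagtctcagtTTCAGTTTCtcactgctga
Isg15, chr4:156200859-156200918, minus strand, GRCm38.p6: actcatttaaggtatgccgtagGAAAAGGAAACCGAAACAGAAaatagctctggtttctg
Igtp, chr11:58199486-58199545, plus strand, GRCm38.p6: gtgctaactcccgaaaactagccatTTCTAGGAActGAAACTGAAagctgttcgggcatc
B2m, chr2:122147532-122147591, plus strand, GRCm38.p6: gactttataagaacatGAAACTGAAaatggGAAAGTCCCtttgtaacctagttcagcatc
Irf1, chr11:53769899-53769958, plus strand, GRCm38.p6: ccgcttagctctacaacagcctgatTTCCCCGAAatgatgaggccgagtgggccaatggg
Icam1, chr9:21015870-21015929, plus strand, GRCm38.p6: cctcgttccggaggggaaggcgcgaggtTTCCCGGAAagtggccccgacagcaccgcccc
Cxcl1, chr5:90891145-90891204, plus strand, GRCm38.p6: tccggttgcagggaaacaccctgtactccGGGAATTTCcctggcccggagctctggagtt
Cxcl2, chr5:90903774-90903833, plus strand, GRCm38.p6: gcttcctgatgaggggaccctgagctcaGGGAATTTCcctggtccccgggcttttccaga
Nfkbia, chr12:55492653-55492772, minus strand, GRCm38.p6: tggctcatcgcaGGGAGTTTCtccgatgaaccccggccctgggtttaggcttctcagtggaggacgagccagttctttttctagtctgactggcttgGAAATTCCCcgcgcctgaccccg

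The genes behind these stretches all rose. Ifit1 went from 6.42, 6.07, 6.15 and 3.5 CPM to 47.8, 87.7, 200.2 and 109 CPM (4.33 ± 0.46 SE, and 3.71 with PBS replicate 4 and LPS replicate 3 both left out). Cxcl2, a neutrophil attractant, reached 5.82, 6.45, 9.32 and 6.74 CPM from 0.0550, 0.175, 0.111 and 0.891 CPM. PBS replicate 4 was again the highest PBS library. Of the capitals in Ifit1 and Isg15, 3 matches lie 84 to 109 bases before the Ifit1 start and 3 lie 66 to 78 bases before the Isg15 start.

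**Figure D2:**
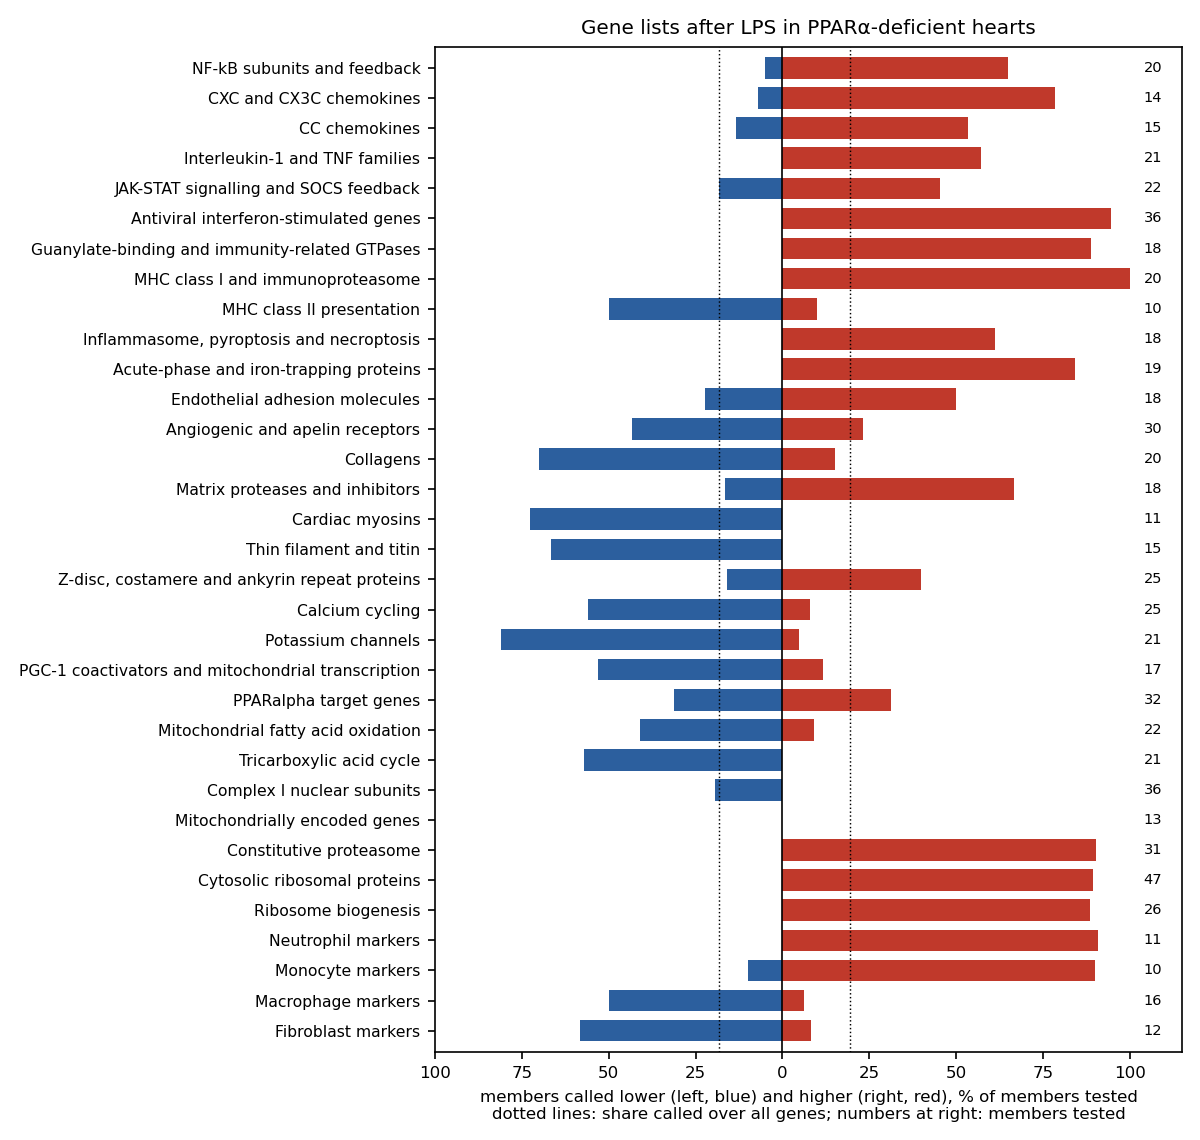
Share of the tested members of each gene list called higher (red, to the right) and lower (blue, to the left) after LPS in PPARα-deficient hearts, in percent, with the number of tested members at the right and dotted lines at the shares over all genes (19.4% higher, 18.3% lower). The cytosolic ribosomal, ribosome biogenesis, proteasome and most immune lists extend to the right, and MHC class II presentation, macrophage markers, channels, myosins, collagens and the tricarboxylic acid cycle to the left.

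Acute-phase proteins and cell death genes rose as well. Of 19 tested acute-phase genes (of 24 listed) 16 rose (median 6.05). A gene with next to no counts after PBS passes the gene filter only through LPS libraries, which can raise this share. The same holds for the neutrophil and the T and NK cell markers below. Lcn2, whose product withholds iron from bacteria by binding their siderophores, was at 2.28, 1.43, 2.70 and 3.32 CPM after PBS and 1845, 1937, 1437 and 1212 CPM after LPS (log2 fold change 9.37 ± 0.28 SE, adjusted p = 2.73e-12). Saa3, an acute-phase serum amyloid A, was at 0.179, 0.820, 0.373 and 0.388 CPM after PBS and 1355, 999, 647 and 600.0 CPM after LPS. Serpina3n, a protease inhibitor of a cluster of near copies, was at 4.65, 6.16, 15.8 and 20.8 CPM after PBS and 1405, 1055, 915 and 927 CPM after LPS. Every LPS library carried these transcripts at high levels. Lrg1, a leucine-rich glycoprotein of inflamed vessels, rose from 35.4, 38.3, 35.4 and 50.5 CPM to 1548, 1185, 1156 and 993 CPM (4.94 ± 0.16 SE). Cfb, complement factor B of the alternative pathway, went from 1.36, 1.90, 2.85 and 2.50 CPM to 116, 131, 126 and 122 CPM. It was among 8 of 21 complement genes that rose, while 3 fell, a share not above the 18.3% of all genes. Acod1, which makes itaconate in activated macrophages, had 10.4, 14, 14.6 and 7.13 CPM after LPS and at most 0.108 CPM after PBS. Nos2, the inducible nitric oxide synthase gene, was not called at 8.95, 7.49, 7.66 and 11.7 CPM after PBS and 8.14, 15.6, 16.9 and 4.60 CPM after LPS. Metallothioneins, which bind zinc, rose steeply, with Mt2 at 6.53, 14.4, 14.6 and 27.0 CPM after PBS and 864, 647, 547 and 472 CPM after LPS. Mt1 was at 77.3, 121, 98.3 and 107 CPM after PBS and 1453, 1082, 1059 and 956 CPM after LPS. Of 18 genes of inflammatory cell death and inflammasomes 11 rose. Zbp1, the sensor that starts necroptosis, went from 1.71, 0.673, 1.47 and 1.44 CPM to 36.0, 42, 45.9 and 24.3 CPM. Mlkl, which breaches the membrane at its end, went from 2.59, 4.06, 2.84 and 2.61 CPM to 17.0, 20.9, 16 and 12.8 CPM. Of the prostaglandin list 2 rose and 5 fell of 17. Ptgs2, the inducible cyclooxygenase gene, was at 2.78, 4.85, 3.34 and 4.12 CPM after LPS against 0.481, 0.968, 1.16 and 1.65 CPM. Hpgd, which breaks prostaglandins down, fell by 2.44 ± 0.43 SE.

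Vessel genes moved in both directions. Adhesion molecules rose in 9 of 18 cases and fell in 4, the latter a share near the 18.3% of all genes. Icam1, which arrests rolling leukocytes, went from 13, 13.3, 14 and 18.0 CPM to 107, 116, 125 and 112 CPM (log2 fold change 2.98 ± 0.15 SE, adjusted p = 5.25e-10). The LPS libraries differed little among themselves in this gene. Vcam1, which holds monocytes and lymphocytes, was at 9.35, 10, 14.1 and 15.3 CPM after PBS and 41.9, 42.3, 44.8 and 37.1 CPM after LPS. Selp, encoding P-selectin, was at 0.261, 0.229, 0.498 and 2.79 CPM after PBS and 26.4, 21.0, 28.3 and 25.8 CPM after LPS, with PBS replicate 4 the highest PBS library. Pan-endothelial genes Cdh5 (0.03 ± 0.09 SE) and Pecam1 (-0.11 ± 0.08 SE) were not called. Of 30 angiogenic genes 13 fell and 7 rose. Aplnr, the apelin receptor gene (chromosome 2, 85136225 to 85139923 of GRCm38), fell from 52.9, 34.9, 50.2 and 57.6 CPM to 2.10, 1.66, 1.05 and 1.54 CPM (log2 fold change -4.94 ± 0.25 SE, adjusted p = 8.14e-10). Vegfa, the main angiogenic factor, was at 329, 333, 270.3 and 253 CPM after PBS and 62.8, 69.8, 80.9 and 98.1 CPM after LPS. Its receptor gene Kdr was at 213, 191, 269 and 316 CPM after PBS and 128, 130.2, 139 and 137 CPM after LPS. No LPS library reached a PBS library in these 3 genes. Pgf, placental growth factor of the same family, rose from 5.47, 6.29, 4.47 and 7.28 CPM to 69.8, 85.8, 114 and 92.7 CPM (3.94 ± 0.20 SE). Hey1, a Notch target, fell from 10.1, 14, 9.94 and 6.58 CPM to 0.198, 0.992, 0.770 and 1.38 CPM. In the coagulation list 7 of 22 rose and 5 fell, the latter a share near the 18.3% of all genes. With 1 library left out 3 to 4 fell (3 without PBS replicate 3). Procr, the protein C receptor gene, rose by 2.45 ± 0.29 SE.

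The contractile apparatus fell in part. Of 11 cardiac myosin genes and their partners 8 fell (median -0.38), and of 15 thin filament and titin genes 10 fell (median -0.39). Myh6 (chromosome 14, 54941921 to 54966927 of GRCm38) was at 35207, 35144, 31167 and 30292 CPM after PBS and 19042, 18368, 21521 and 18973 CPM after LPS (log2 fold change -0.76 ± 0.08 SE, adjusted p = 8.99e-07). Every LPS library was below every PBS library. Its mean level dropped by 13477 CPM. Myh7b, a slow-type myosin gene, fell much further in proportion, from 218, 228, 199 and 173 CPM to 7.71, 9.43, 9.32 and 13.4 CPM (-4.36 ± 0.18 SE). Actc1, cardiac alpha-actin, was at 9315, 9927, 9361 and 9134 CPM after PBS and 2375, 2356, 3911 and 4149 CPM after LPS, so that LPS replicates 3 and 4 kept more of it than replicates 1 and 2. Mybpc3, the myosin-binding protein of cardiac muscle, fell by 0.77 ± 0.08 SE, while Tnnt2 (0.03 ± 0.08 SE) and Ttn (-0.27 ± 0.19 SE) were not called. In bulk tissue, fewer cells of a type and less RNA per cell cannot be told apart.

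Proteins of the Z-disc and the stretch-responsive ankyrin repeat family rose more often than they fell, 10 against 4 of 25. Ankrd1, which binds titin's elastic part and enters the nucleus, was at 569, 552, 955 and 550.2 CPM after PBS and 2608, 2419, 6121 and 3514 CPM after LPS (log2 fold change 2.48 ± 0.32 SE, adjusted p = 1.26e-05). LPS replicate 3 and PBS replicate 3 were the highest of their groups, and the groups did not overlap. Its mean level was 3009 CPM higher. Ankrd2, its relative of skeletal muscle, rose from at most 0.330 CPM to 34.8, 98.3, 67.8 and 58.2 CPM. Tcap, which anchors titin at the Z-disc, was at 373, 352, 307 and 356 CPM after PBS and 691, 714, 1692 and 1626 CPM after LPS, with replicates 3 and 4 more than 2-fold above replicates 1 and 2 after LPS. Hspb7, a small heat shock protein that binds filamin C, was at 1696, 1862, 1834 and 1946 CPM after PBS and 3304, 3595, 3367 and 3429.5 CPM after LPS (log2 fold change 0.90 ± 0.07 SE, adjusted p = 3.48e-08), and its LPS libraries lay close together.

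Calcium cycling and repolarisation fell. Of 25 calcium genes 14 fell and 2 rose (median -0.56). Atp2a2, the pump that refills the sarcoplasmic reticulum, was at 16140.4, 14824, 14553 and 14547 CPM after PBS and 10859, 9509, 9990.3 and 9857 CPM after LPS (log2 fold change -0.58 ± 0.07 SE, adjusted p = 8.43e-06). Ryr2, the release channel of that store, was at 1564, 1193, 1721 and 1341 CPM after PBS and 1009, 1100.2, 803 and 738 CPM after LPS. The groups were separate in both. Jph2, junctophilin-2, which ties the sarcoplasmic reticulum to the cell surface, fell from 766, 785, 671 and 709 CPM to 134, 148, 333 and 232 CPM (-1.79 ± 0.28 SE), with replicate 3 keeping the most. Potassium channels had the highest share of lower members among the contraction lists, 17 of 21 lower (median -1.28) and 1 higher. Kcnk3, a background potassium channel, was at 404, 403, 364 and 395 CPM after PBS and 62.0, 50.9, 79.2 and 102 CPM after LPS (log2 fold change -2.41 ± 0.24 SE, adjusted p = 7.04e-07). Kcnip2, a subunit needed for the transient outward current, was at 185, 169, 174 and 129 CPM after PBS and 47.6, 44.9, 57.2 and 46.7 CPM after LPS. Abcc9, the sulfonylurea receptor of ATP-sensitive channels, fell from 393, 360.2, 361 and 326 CPM to 131, 131, 158 and 151 CPM, and no library was out of order in these 3 genes. Among adrenergic and cAMP genes 11 of 24 fell and 5 rose, the latter a share near the 19.4% of all genes. Adrb1, the main beta-adrenergic receptor gene of the heart, was not called (-0.31 ± 0.19 SE), and was called lower without PBS replicate 2 (adjusted p = 0.0172). Nppb, the gene of the natriuretic peptide BNP, was not called either at 179, 234, 235 and 235 CPM after PBS and 60.6, 44.5, 230.2 and 102 CPM after LPS, where LPS replicate 3 stayed within the PBS range. Without that library Nppb was called lower (-1.68, adjusted p = 0.0073). Nppa, the atrial peptide gene, was at 226, 328, 283 and 185 CPM after PBS and 110.0, 112, 176 and 201 CPM after LPS and fell by 0.77 ± 0.21 SE with overlapping groups.

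**Figure D3:**
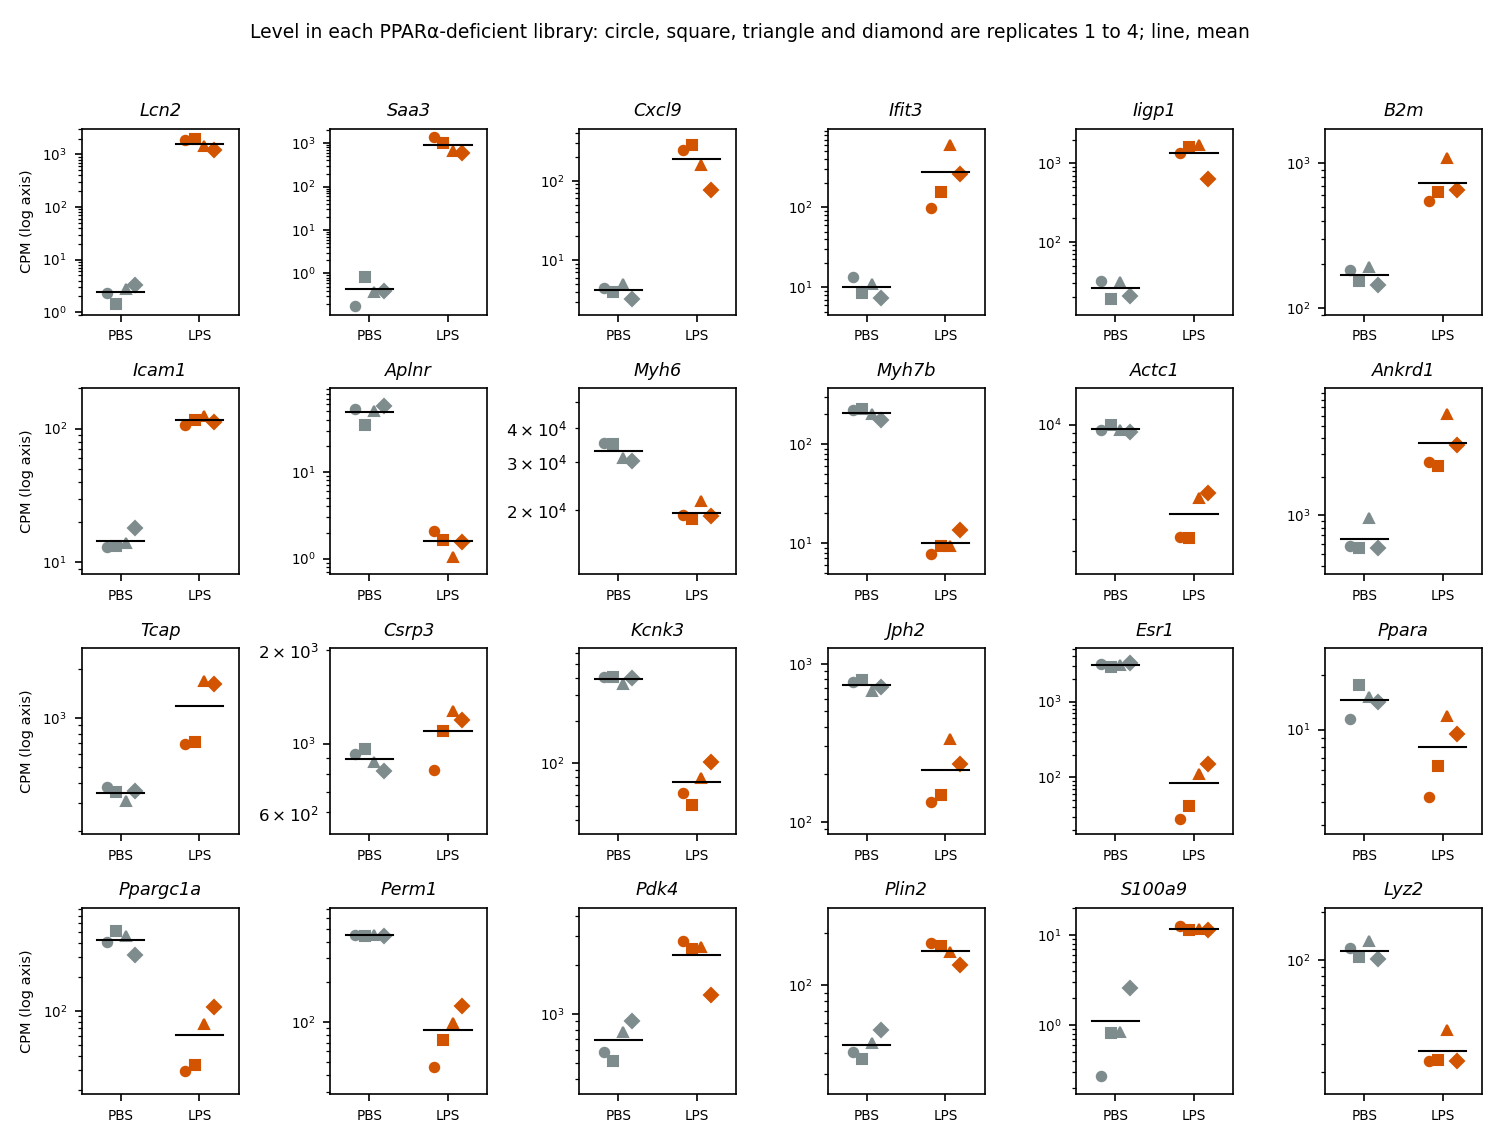
CPM on a log axis of 24 genes in each PPARα-deficient library, PBS in grey and LPS in orange, with 1 symbol per replicate number and a line at the group mean. Lcn2, Saa3 and Icam1 are high in every LPS library, Ifit3 and B2m are highest in LPS replicate 3, and Actc1, Esr1, Ppargc1a and Perm1 are higher in LPS replicates 3 and 4 than in replicates 1 and 2.

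Genes of nuclear receptors and of the coactivators of oxidative metabolism fell more often than they rose. Of 17 tested genes of PGC-1 coactivators and mitochondrial transcription 9 fell and 2 rose (median -0.38). Ppargc1a, encoding PGC-1α, was at 410.3, 517, 462 and 316 CPM after PBS and 29.3, 32.9, 76.8 and 108 CPM after LPS (log2 fold change -2.79 ± 0.36 SE, adjusted p = 1.39e-05). LPS replicates 3 and 4 kept more than replicates 1 and 2, and none reached a PBS library. Perm1, a muscle regulator induced by PGC-1α, was at 447, 445, 449.8 and 441 CPM after PBS and 46.1, 72.7, 98.9 and 132 CPM after LPS (-2.35 ± 0.27 SE), with the same libraries at either end. The estrogen-related receptor genes Esrra and Esrrg fell, by 1.06 ± 0.15 SE and 2.17 ± 0.19 SE. Rxrg, a partner of PPARα, was at 58.2, 63.4, 62.7 and 66.2 CPM after PBS and 12.7, 15.3, 22.9 and 24.8 CPM after LPS. In the nuclear receptor list 10 of 18 fell and 2 rose, the liver X receptor genes Nr1h3 (0.84 ± 0.15 SE) and Nr1h2 (0.66 ± 0.11 SE). Ppard (-0.23 ± 0.16 SE) and Pparg (0.11 ± 0.13 SE) were not called. Counts under the symbol Esr1, the estrogen receptor gene (chromosome 10, 4611593 to 5005614 of GRCm38), showed one of the largest losses. Esr1 was at 3150.1, 2859, 3068 and 3201 CPM after PBS and 28.3, 42.3, 111 and 152 CPM after LPS (log2 fold change -5.20 ± 0.54 SE, adjusted p = 1.34e-06). Its LPS libraries differed 5.37-fold from replicate 1, the lowest, to replicate 4, the highest. In Ppara-flox libraries Esr1 did not exceed 0.516 CPM. The high PBS level was thus seen only in the deficient genotype. Whether the counts come from the gene itself was not tested, so the loss is given for the symbol only. Esr1 had the lowest fold change of the nuclear receptor list and is among the 10 counted as lower there.

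PPARα targets did not move as a block. Of 32 tested targets 10 rose and 10 fell, against 19.4% and 18.3% of all genes, with a median of 0.07. Without PBS replicate 4 the lower count was 6. Pdk4, which closes pyruvate dehydrogenase to glucose carbon, was at 583, 516, 772 and 907 CPM after PBS and 2805, 2499, 2569.5 and 1307 CPM after LPS (log2 fold change 1.72 ± 0.28 SE, adjusted p = 1.24e-04), LPS replicate 4 being the lowest. Angptl4, an inhibitor of lipoprotein lipase, was at 14.6, 10.1, 27.4 and 34.0 CPM after PBS and 97.9, 75.6, 80.2 and 87.1 CPM after LPS. Plin2, a lipid droplet coat protein, went from 40.4, 36.9, 45.5 and 54.7 CPM to 176, 168, 156 and 131 CPM (1.83 ± 0.13 SE). The groups were separate in all 3. Plin5, the droplet protein that contacts mitochondria, fell by 0.99 ± 0.21 SE. Of 22 genes that oxidise fatty acids in mitochondria 9 fell and 2 rose, with a median of only -0.15, and the lower count was 5 with PBS replicate 4 and LPS replicate 3 both left out. Cpt1b, the muscle gate for entry of fatty acids into mitochondria, was at 374, 411, 414 and 409.7 CPM after PBS and 287, 292, 310.2 and 324 CPM after LPS (-0.41 ± 0.08 SE). Acadvl, the first dehydrogenase for long chains, was at 425, 419.6, 449.5 and 476 CPM after PBS and 444, 419, 404 and 419.5 CPM after LPS and was not called (-0.07 ± 0.07 SE).

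Among glucose genes the muscle forms fell and the inducible or widely expressed forms rose in the 2 pairs described here. The insulin-responsive transporter gene Slc2a4 fell from 475, 433, 435 and 424 CPM to 199, 166, 214 and 231 CPM (log2 fold change -1.12 ± 0.10 SE, adjusted p = 3.53e-07), while Slc2a1, the basal transporter gene, rose from 22.9, 22, 20.9 and 23.7 CPM to 47.9, 44.1, 59.1 and 52.3 CPM (1.18 ± 0.11 SE). Among enzymes that set the fructose 2,6-bisphosphate level, Pfkfb3, the inducible form, rose from 9.41, 5.97, 9.79 and 9.19 CPM to 83.2, 55.8, 71.5 and 58.3 CPM and Pfkfb2, the cardiac form, fell from 115, 99.3, 93.6 and 75.4 CPM to 12.3, 14.5, 19.4 and 29.0 CPM. Each pair of groups was separate. The glycolysis list had 9 higher and 13 lower of 31. In the tricarboxylic acid cycle 12 of 21 fell by small steps (median -0.18). Ogdh, the 2-oxoglutarate dehydrogenase gene, was at 2793, 2668, 2467 and 2455 CPM after PBS and 1809, 1714, 1912 and 1832 CPM after LPS (-0.51 ± 0.06 SE). Idh3a, a subunit of isocitrate dehydrogenase, was at 573, 611, 579 and 628 CPM after PBS and 402, 405, 397 and 398 CPM after LPS (-0.58 ± 0.06 SE). Pyruvate dehydrogenase and its regulators had 9 lower and 3 higher of 15.

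Respiratory chain transcripts changed little. Of 36 nuclear complex I genes 7 fell, a share near the background of 18.3% (median -0.13). That count was 4 without LPS replicate 2, 4 without LPS replicate 4 and 4 without PBS replicate 1. Ndufs1, its largest subunit, was at 638, 619, 624 and 603 CPM after PBS and 487, 511, 554 and 469 CPM after LPS (-0.30 ± 0.07 SE). Of 16 ATP synthase genes 1 fell, and 0 without PBS replicate 1. The 13 mitochondrially encoded genes gave 0 calls in either direction by edgeR, 0 had an unadjusted p under 0.05, and DESeq2 called 0 higher and 0 lower. Their median was -0.03, and mt-Co1 was at 96137, 85479, 103541 and 114066 CPM after PBS and 94312, 106738, 111347 and 93394 CPM after LPS. Genes that shape mitochondria fell in 7 of 21 cases. Mtfp1, which promotes fission, went from 124, 148, 126 and 147 CPM to 34.0, 33.7, 34.1 and 49.1 CPM (log2 fold change -1.85 ± 0.14 SE, adjusted p = 4.04e-08), and the fusion genes Mfn1 (-0.87 ± 0.06 SE) and Opa1 (-0.69 ± 0.11 SE) fell too. Slc25a33, a mitochondrial carrier of pyrimidine nucleotides, was at 45.6, 31.5, 29.0 and 18.8 CPM after PBS and 7.85, 7.33, 9.09 and 7.17 CPM after LPS.

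Most genes of cytosolic ribosomes, of ribosome biogenesis and of the constitutive proteasome rose. Cytosolic ribosomal proteins rose in 42 of 47 cases (median 0.48), ribosome biogenesis in 23 of 26 (median 0.66) and the constitutive proteasome in 28 of 31 (median 0.43). Rpl3, of the large ribosomal subunit, was at 91.9, 98.1, 97.1 and 91.8 CPM after PBS and 185, 187, 157 and 189 CPM after LPS (log2 fold change 0.92 ± 0.11 SE, adjusted p = 3.59e-06). Psmd4, a ubiquitin receptor of the proteasome, was at 77.2, 70.4, 67.5 and 63.0 CPM after PBS and 122, 121, 110.0 and 115 CPM after LPS (0.75 ± 0.08 SE). Both were separate between groups. Myc, which drives ribosome synthesis, rose from 2.49, 2.47, 2.24 and 5.34 CPM to 14.2, 15.2, 16.8 and 11.5 CPM (2.20 ± 0.25 SE). Mitochondrial ribosomal proteins did not share the rise, with 12 of 36 lower and 4 higher. Of 17 atrophy ubiquitin ligase and FoxO genes 8 fell and 4 rose (median -0.34). Those that rose were Fbxo32, Fbxo31 (1.41 ± 0.11 SE), Trim54 (0.58 ± 0.07 SE) and Cblb (1.79 ± 0.21 SE). Fbxo32, encoding atrogin-1, was at 193, 136, 155 and 105 CPM after PBS and 391, 309.6, 305 and 166 CPM after LPS (0.99 ± 0.22 SE), LPS replicate 4 lying within the PBS range. Trim63, encoding MuRF1, was not called at 171, 149, 201 and 116 CPM after LPS against 243, 227, 213 and 133 CPM after PBS, and was called lower without PBS replicate 4 (adjusted p = 0.0371). Asb2, a muscle ubiquitin ligase subunit, fell from 702, 672, 596 and 572 CPM to 54.8, 57.6, 93.1 and 174 CPM. Igf1, the insulin-like growth factor gene, fell from 5.47, 7.47, 5.89 and 6.23 CPM to 0.528, 0.219, 0.958 and 0.238 CPM (-3.69 ± 0.37 SE).

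Stress programmes were mixed. In the integrated stress list 17 of 28 rose. Atf4, its central transcription factor, was at 63.1, 66.0, 72.2 and 74.9 CPM after PBS and 140.2, 145, 141 and 145 CPM after LPS (log2 fold change 1.05 ± 0.07 SE, adjusted p = 8.70e-09). Psat1, an enzyme of serine synthesis, was at 1.54, 1.61, 1.09 and 1.15 CPM after PBS and 9.0, 13, 11.5 and 11.6 CPM after LPS. The groups did not overlap in either gene. The chaperone gene Hspa5, a marker of unfolded proteins in the endoplasmic reticulum, was not called (0.14 ± 0.12 SE). Heat shock genes had 5 higher, including the small heat shock genes Hspb7 and Hspb1 (1.59 ± 0.18 SE), and 9 lower of 24, among them Hsph1 (-1.13 ± 0.27 SE). The summed level of that list was higher after LPS, 8856 to 9944 CPM after PBS and 11022 to 11504 CPM after LPS. Glucocorticoid-responsive genes rose in 12 of 19 cases. The largest log2 fold change of that list was 9.37, the value of Lcn2, and some genes stand in several lists. Fkbp5, which tunes the glucocorticoid receptor, was at 64.5, 77.4, 41 and 48.2 CPM after PBS and 394, 344, 344 and 329 CPM after LPS (2.61 ± 0.16 SE). Per1, a clock gene that glucocorticoids also induce, was at 38.8, 57.9, 27.0 and 16.4 CPM after PBS and 141, 157, 111 and 94.9 CPM after LPS. Dbp, a clock output gene, was at 5.47, 4.80, 4.85 and 5.67 CPM after PBS and 13.2, 17.8, 27.0 and 23.6 CPM after LPS. The activator Arntl, encoding BMAL1, fell from 38.9, 32.2, 34.7 and 38.7 CPM to 23.5, 23.4, 19.8 and 14.7 CPM (-0.83 ± 0.14 SE). Of the 19 clock genes 7 rose and 3 fell. The labels give one time, 12 h after LPS injection. A time after PBS and the hour of day are not given in the sources used here.

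Most collagen genes fell, and most genes of matrix proteases and their inhibitors rose. Collagens fell in 14 of 20 cases and rose in 3 (median -0.89). Their summed level went the other way, 2079 to 2473 CPM after PBS and 2564 to 2876 CPM after LPS, with most of the counts in Col4a1 and Col4a2, which rose. Col4a1 was at 643, 739, 589 and 736 CPM after PBS and 1167, 1147, 1101 and 1081 CPM after LPS. Col8a1, a short-chain collagen of vessels and fibroblasts, was at 14, 16.5, 21.7 and 19.3 CPM after PBS and 2.94, 4.47, 3.5 and 3.80 CPM after LPS (log2 fold change -2.28 ± 0.17 SE, adjusted p = 3.82e-08). Col14a1, of the collagens that associate with fibrils, was at 10, 13.8, 13.4 and 13.2 CPM after PBS and 2.67, 3.17, 2.79 and 3.55 CPM after LPS. LPS libraries were all below PBS libraries in both. Col1a1 (-0.35 ± 0.18 SE) and Col3a1 (-0.12 ± 0.14 SE), the members not called with the highest levels, form fibrils. The 3 that rose, Col4a1 (0.73 ± 0.12 SE), Col4a2 (0.84 ± 0.11 SE) and Col18a1 (0.64 ± 0.21 SE), belong to basement membranes. The call of Col18a1 was lost without LPS replicate 3 (adjusted p = 0.0518), LPS replicate 4 (adjusted p = 0.0648), PBS replicate 1 (adjusted p = 0.0793) or PBS replicate 3 (adjusted p = 0.08). Matrix proteases and inhibitors rose in 12 of 18 cases and fell in 3. Timp1, a protease inhibitor, was at 1.66, 0.901, 1.85 and 3.07 CPM after PBS and 35.3, 48.5, 41.2 and 43.4 CPM after LPS (4.49 ± 0.26 SE). Mmp3, stromelysin-1, was at 3.19, 2.87, 5.41 and 4.37 CPM after PBS and 35.5, 31.6, 23.8 and 25.1 CPM after LPS (2.87 ± 0.22 SE). The cross-linking enzyme gene Lox went from 3.66, 5.00, 6.33 and 6.62 CPM to 40.5, 42.3, 42.4 and 30.7 CPM. Thbs2, a matricellular protein gene, fell from 22.3, 18.1, 17.5 and 17.8 CPM to 3.47, 3.49, 4.73 and 6.11 CPM.

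Markers of immune cells moved with these groups, and their part in the results above was not tested. Neutrophil markers rose in 10 of 11 tested cases (of 15 listed), and their summed level was 4.46 to 13.3 CPM after PBS and 61.6 to 96.7 CPM after LPS. S100a9, a subunit of neutrophil calprotectin, was at 0.275, 0.807, 0.830 and 2.59 CPM after PBS and 12.6, 11.3, 11.8 and 11.3 CPM after LPS (log2 fold change 3.38 ± 0.51 SE, adjusted p = 5.46e-05, and 4.20 without PBS replicate 4). Elane, Mpo and Ly6g, also of this list, lay at 0 to 0.234, 0 to 0.350 and 0 to 0.232 CPM after LPS and had no count in any PBS library. PBS replicate 4 had a list mean of -0.96 on the log2 CPM scale against -2.98, -2.42 and -2.37 in the other PBS libraries. With PBS replicate 4 and LPS replicate 3 both left out 10 neutrophil markers rose, as did 10 CXC chemokines and 33 antiviral genes. Monocyte markers rose in 9 of 10 cases, summed 19.2 to 32.9 CPM after PBS and 97 to 148 CPM after LPS. Plac8 was at 0.193, 0.175, 0.360 and 0.531 CPM after PBS and 6.32, 6.06, 8.04 and 6.62 CPM after LPS (4.42 ± 0.39 SE). Ccr2, the monocyte homing receptor, went the other way, at 0.894, 0.471, 1.47 and 2.31 CPM after PBS and 0.211, 0.525, 0.378 and 0.517 CPM after LPS, a call lost without LPS replicate 1 (adjusted p = 0.0903), LPS replicate 3 (adjusted p = 0.0679), PBS replicate 3 (adjusted p = 0.0652) or PBS replicate 4 (adjusted p = 0.13). Among 16 macrophage markers, 8 fell and 1 rose. Lyz2 was at 118, 104, 132 and 102 CPM after PBS and 23.6, 24.0, 36.9 and 23.5 CPM after LPS (log2 fold change -2.08 ± 0.16 SE, adjusted p = 6.03e-08). Csf1r, the receptor gene on which macrophages depend, was at 51.4, 48.2, 43.4 and 42.2 CPM after PBS and 18.0, 20.7, 25.4 and 22.1 CPM after LPS. C1qa (-0.13 ± 0.16 SE) and Adgre1 (0.18 ± 0.16 SE) were not called.

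Markers of the resident non-immune cells fell in part. Cardiomyocyte markers fell in 7 of 12 cases (median -0.32), summed 69588 to 76363 CPM after PBS and 46807 to 51889 CPM after LPS. Fibroblast markers fell in 7 of 12 cases (median -0.58) and rose in 1, Dcn (0.59 ± 0.10 SE). Pericyte and smooth muscle markers fell in 7 of 12 cases (median -0.74) and rose in 2, Mcam (1.20 ± 0.13 SE) and Des (0.52 ± 0.07 SE). Their summed level was higher after LPS, 2742 to 2852 CPM after PBS and 3188 to 3434 CPM after LPS, most of it from Des, the desmin gene, which cardiomyocytes also express, at 1947, 1906, 1909.6 and 1819.8 CPM after PBS and 2739, 2677, 2621 and 2836 CPM after LPS. Endothelial markers gave 3 higher and 3 lower of 12, near the 19.4% and 18.3% of all genes. Of 9 tested T and NK cell markers 2 were called higher, a share near the 19.4% of all genes. They were the granzyme genes Gzmb, at 1.54, 1.26, 6.27 and 4.04 CPM after LPS against 0.110, 0, 0.221 and 0 CPM after PBS, and Gzma. DESeq2 called 5 of the list higher. Of 6 B cell markers 1 fell, near the 18.3% of all genes: Ighm, the heavy chain gene of IgM, at 4.41, 2.17, 3.87 and 3.96 CPM after PBS and 0.422, 0.379, 1.23 and 0 CPM after LPS. Without LPS replicate 3, 2 fell. Hba-a1, an alpha-globin gene that reports blood left in the tissue, scattered widely at 176, 402, 44.8 and 119 CPM after PBS and 99.1, 15.9, 68.9 and 11.4 CPM after LPS, and its call (adjusted p = 0.0495) was lost without LPS replicate 2 (adjusted p = 0.123), LPS replicate 3 (adjusted p = 0.0613), LPS replicate 4 (adjusted p = 0.112), PBS replicate 1 (adjusted p = 0.0733), PBS replicate 2 (adjusted p = 0.214) or PBS replicate 4 (adjusted p = 0.0517).

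**Figure D4:**
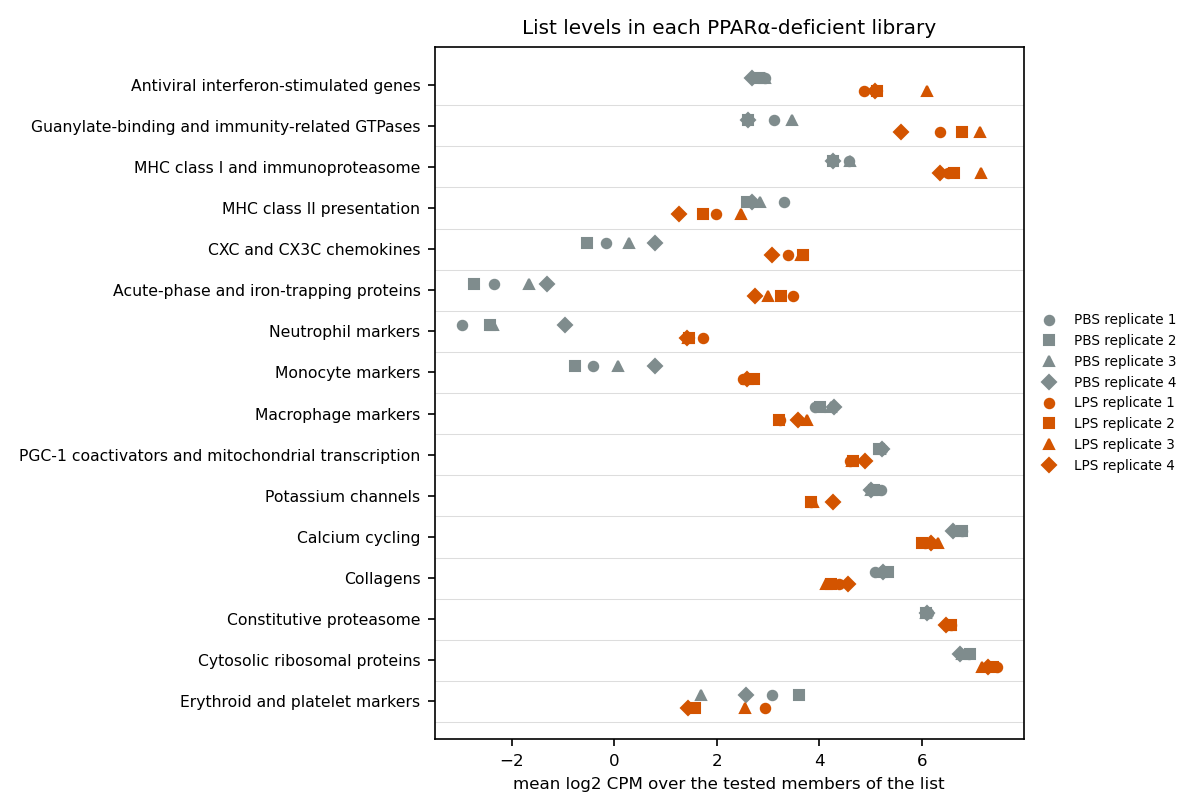
Mean log2 CPM over the tested members of 16 gene lists in each PPARα-deficient library (horizontal axis), PBS in grey above and LPS in orange below, with 1 symbol per replicate number. LPS replicate 3 is the highest library of the antiviral list, LPS replicate 4 the lowest LPS library of the guanylate-binding list, and PBS replicate 4 the highest PBS library of the neutrophil and monocyte lists.

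Whether LPS acted differently in PPARα-deficient and Ppara-flox hearts was asked with an interaction test, the LPS effect in deficient hearts minus that in flox hearts over all 16 libraries. By edgeR 0 genes passed in either direction. 1075 had an unadjusted p under 0.05 (5.74% of genes), and DESeq2 called 26 with a higher and 29 with a lower effect. With counts divided by 4 edgeR called 3 and 1. Without LPS replicate 1 it called 3 and 1, without LPS replicate 4 1 and 1, and without LPS replicate 3 or PBS replicate 4 0 and 1. With all libraries, edgeR thus showed a difference between the genotypes for no gene, and the genes that follow are given as values. Csrp3, encoding the muscle LIM protein of the Z-disc, was at 927, 959, 873 and 817 CPM after PBS and 823, 1102, 1270.4 and 1192 CPM after LPS in deficient hearts and at 697, 795, 924 and 649.8 CPM after PBS and 479, 357, 335 and 361 CPM after LPS in flox hearts. The LPS libraries overlapped the PBS libraries in deficient hearts (0.29 ± 0.14 SE) and lay below them in flox hearts (-1.0 ± 0.14 SE), with a difference of the log2 fold changes 1.3 ± 0.20 SE (adjusted p = 0.0696). Without LPS replicate 1 Csrp3 was called higher in deficient hearts (adjusted p = 0.0223). Synpo2l, another Z-disc protein gene, was at 167, 174, 146 and 143 CPM after PBS and 188, 370.0, 349 and 181 CPM after LPS in deficient hearts and at 164, 156, 149 and 121 CPM after PBS and 54.6, 42.3, 69.8 and 78.3 CPM after LPS in flox hearts (difference of the log2 fold changes 2.06 ± 0.32 SE, adjusted p = 0.0696). Its rise in deficient hearts (0.79 ± 0.22 SE) was not called with PBS replicate 4 and LPS replicate 3 both left out (adjusted p = 0.0886). Flnc, the filamin gene of the Z-disc, had the same signs (deficient 0.51 ± 0.20 SE, flox -0.88 ± 0.20 SE, interaction adjusted p = 0.192). LPS replicate 1 was far below the other 3 LPS libraries of deficient hearts in Flnc (520.1, 1070.0, 986 and 1029.7 CPM), and without it the gene was called higher there (adjusted p = 0.00253). Nceh1, a cholesteryl ester hydrolase gene, fell in deficient hearts from 178, 195, 199 and 195 CPM to 41.5, 46.9, 49.0 and 57.2 CPM (-1.98 ± 0.10 SE) and had a log2 fold change of -1.15 ± 0.10 SE in flox hearts (interaction adjusted p = 0.0749). Slc25a34, a mitochondrial carrier gene, fell by 0.99 ± 0.14 SE in deficient hearts against 0.08 ± 0.14 SE in flox hearts (interaction adjusted p = 0.128). Acacb, which makes the malonyl-CoA that blocks CPT1, had -1.14 ± 0.09 SE against -0.52 ± 0.09 SE (interaction adjusted p = 0.174). For Plin2 the values were 1.83 ± 0.13 SE and 2.72 ± 0.14 SE (interaction adjusted p = 0.201). For comparison, Lcn2 (9.37 ± 0.28 SE and 9.31 ± 0.27 SE), Myh7b (-4.36 ± 0.18 SE and -4.51 ± 0.18 SE) and Atp2a2 (-0.58 ± 0.07 SE and -0.57 ± 0.07 SE) had nearly the same values in both genotypes.

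**Figure D5:**
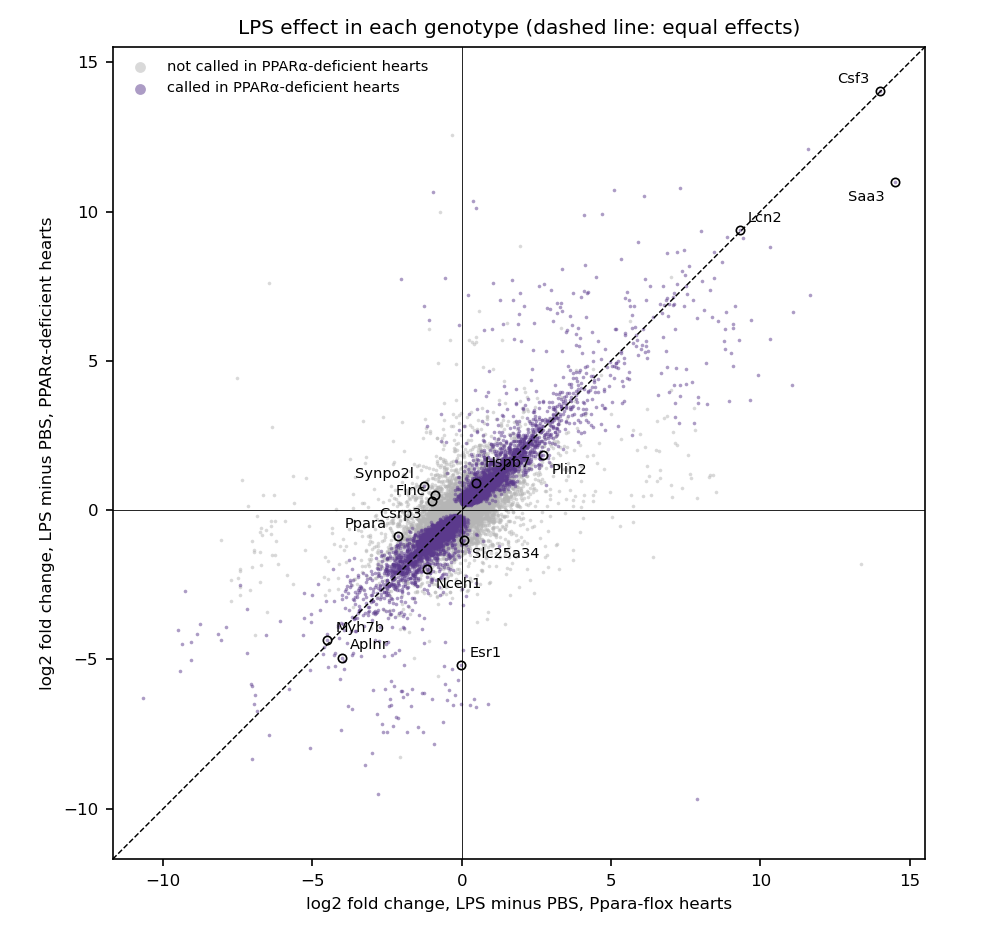
Log2 fold change after LPS in PPARα-deficient hearts (vertical axis) against that in Ppara-flox hearts (horizontal axis), 1 point per tested gene, purple where called in PPARα-deficient hearts, with a dashed line of equal effects. Lcn2, Csf3 and Myh7b lie on the line, Esr1 below it at a flox value near 0, and Csrp3, Synpo2l and Flnc lie to the left of 0 on the horizontal axis and above 0 on the vertical axis.

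Beyond the lists, the genes with the largest folds or the largest shifts in level included several of other functions. Tacc2, a microtubule-associated protein gene, rose from 552, 555, 594 and 689 CPM to 3035, 2721, 2724 and 2579 CPM (log2 fold change 2.21 ± 0.12 SE, adjusted p = 1.77e-09). Clic4, an intracellular chloride channel protein gene, went from 492, 531, 478 and 545 CPM to 1159, 1488, 2442 and 1558 CPM, with replicate 3 the highest. Slc6a12, a betaine and GABA transporter gene, had at most 0.23 CPM after PBS and 9.05, 9.41, 10.7 and 10.1 CPM after LPS. Among the genes that fell, Aqp7, the glycerol channel gene, was at 30.9, 26.7, 39.7 and 51.8 CPM after PBS and 2.53, 1.93, 3.33 and 4.00 CPM after LPS (-3.66 ± 0.33 SE). Cdh23, a cadherin known from hair cells of the ear, was at 10.2, 11.7, 11.3 and 13.2 CPM after PBS and 0.330, 0.350, 0.436 and 0.559 CPM after LPS. Fhl2, a LIM protein that binds titin, was at 1469, 1240.0, 1258 and 1249.6 CPM after PBS and 264, 238, 549 and 512 CPM after LPS, and replicates 3 and 4 kept more of it than replicates 1 and 2, as with Actc1. Ivns1abp, a kelch protein gene, fell from 1189, 1029.6, 1196 and 929 CPM to 328, 321, 406 and 374 CPM (-1.60 ± 0.13 SE). The groups were separate in all of these genes. By class, 3215 of 14536 tested protein-coding genes rose and 3101 fell, and of 1315 lincRNA or antisense genes 105 rose and 145 fell.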

How the data were processed

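RNA of heart tissue from 16 libraries was sequenced, 4 in each of 4 groups, and the 8 of PPARα-deficient hearts are described. The deposited tables hold estimated counts (expected counts), whole numbers per gene symbol that were not scaled between samples. Tools and build named by the submitters' processing notes are DESeq2 1.30.1, HISAT, StringTie 1.3.3b, fastp 0.23.2 and GRCm38. The role of each tool, the annotation and the strand setting are not given in the sources used here, and libraries were made with a stranded kit per the labels' protocols. Whether the counting used the strand is thus not known, and without it reads of a gene and of an antisense partner are not told apart. Among low values the multiples of 4 were in excess, and a read pair was taken as 4 counts, which was not tested. Counting precision then follows from the totals divided by 4. Of 55421 lines, 27 with symbols turned into dates were dropped (0.0644% to 0.0861% of counts) and 116 lines that repeated a symbol were summed into it, leaving 55278 symbols. No 2 libraries were identical.

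All 16 libraries were fitted as 4 group means with edgeR 4.0.16 (filterByExpr, TMM factors, glmQLFit and glmQLFTest, 12 residual degrees of freedom) in R 4.3.3. The standard error is the log2 fold change divided by the root of F. DESeq2 1.42.0, limma 3.58.1 and, for tables and figures, Python 3.11.15 with matplotlib 3.10.9, scipy 1.17.1, pandas 2.3.3 and numpy 2.4.6 were used beside it. Alternatives were other scaling factors and filters, a stricter threshold, a replicate block, counts divided by 4 and libraries left out, and leaving out PBS replicate 4 and LPS replicate 3 together was added after the data were seen. The labels do not say that each library is a separate animal. The p-values weigh a difference between groups against the spread between libraries, estimated over all 16, and not against a spread known to be between animals.

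The groups and the 90 gene lists (1589 of 1681 members tested) were chosen with earlier results of these data known. The genes to name were Ppara, Esr1 and Myh6, the 15 largest fold changes and 10 largest CPM differences in each direction, and, from each list, up to 4 called members with the smallest p, 2 against the list's direction and 2 not called with the highest levels. To these came the 10 genes with the largest SD among LPS libraries and the 10 with the smallest interaction p in each direction. Of the 191 genes named, 40 lie outside that rule and were chosen after their values were seen, mostly well-known members of the lists. Some genes that the rule names are not reported here. Gene coordinates and types came from GENCODE vM21 on GRCm38, and promoter windows from RefSeq on GRCm38.p6.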

Additional observations from a re-analysis of the deposited data

Results flagged for a closer look

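For the genes named in the text, the 4 CPM values of each group of PPARα-deficient hearts were searched for a library whose gap to the nearest of the others, divided by the whole range, was above Dixon's critical value for groups of that size. This was met in 24 of 382 groups of 4 values, and chance gives about 1 in 20. LPS replicate 1 stood apart in Flnc (520.1 CPM, below 986 to 1070.0 CPM in the others). LPS replicate 3 stood apart in Lyz2 (36.9 CPM, above 23.5 to 24.0 CPM in the others), Rpl3 (157 CPM, below 185 to 189 CPM in the others) and Rsad2 (303 CPM, above 54.2 to 66.5 CPM in the others). LPS replicate 4 stood apart in Ciita (0.489 CPM, below 1.93 to 2.01 CPM in the others), Lox (30.7 CPM, below 40.5 to 42.4 CPM in the others) and Mtfp1 (49.1 CPM, above 33.7 to 34.1 CPM in the others). PBS replicate 1 stood apart in Col14a1 (10 CPM, below 13.2 to 13.8 CPM in the others), Cpt1b (374 CPM, below 409.7 to 414 CPM in the others) and Fbxo31 (108 CPM, above 104 to 105 CPM in the others). The same was seen in PBS replicate 1 for Fhl2 (1469 CPM, above 1240.0 to 1258 CPM in the others), Nppb (179 CPM, below 234 to 235 CPM in the others) and Thbs2 (22.3 CPM, above 17.5 to 18.1 CPM in the others). PBS replicate 2 stood apart in Hpgd (3.11 CPM, below 4.84 to 5.02 CPM in the others), Mlkl (4.06 CPM, above 2.59 to 2.84 CPM in the others) and Pfkfb3 (5.97 CPM, below 9.19 to 9.79 CPM in the others). PBS replicate 3 stood apart in Ankrd1 (955 CPM, above 550.2 to 569 CPM in the others) and Trim54 (271 CPM, above 255 to 257 CPM in the others). PBS replicate 4 stood apart in Cxcl2 (0.891 CPM, above 0.0550 to 0.175 CPM in the others), Ifit1 (3.5 CPM, below 6.07 to 6.42 CPM in the others) and Junb (69.0 CPM, above 17.8 to 24.7 CPM in the others). The same was seen in PBS replicate 4 for Myc (5.34 CPM, above 2.24 to 2.49 CPM in the others), Selp (2.79 CPM, above 0.229 to 0.498 CPM in the others) and Socs3 (32.2 CPM, above 5.93 to 8.70 CPM in the others). These are single values, and their causes were not tested.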

How the results depend on the processing

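Over the other settings that kept the threshold (other scaling factors, filters, DESeq2, counts divided by 4, the 8 libraries alone, mitochondrially encoded genes removed and libraries left out), the number of genes called higher stayed between 3134 and 3852 and the number called lower between 2906 and 3811. With 1 library left out they lay between 3260 and 3430 and between 3005 and 3313. Asking for at least a 2-fold change left 1432 and 1352. No scaling moved the median of all genes by over 0.1 on the log2 scale. For the difference between genotypes the higher and lower counts were 26 and 29 with DESeq2, 3 and 1 with counts divided by 4, 0 and 3 with PBS replicate 4 and LPS replicate 3 both left out (chosen after seeing the data), and between 0 and 3 and between 0 and 1 with 1 library left out. The cause was not tested. Deviations of same-numbered PBS and LPS libraries correlated at 0.088, -0.002, 0.013 and -0.052, and those of differently numbered libraries at -0.088 to 0.064. So few values cannot show whether the numbers pair libraries or share a batch. With a replicate block the counts were 3543 higher and 3316 lower. Of the 159 called genes named, 154 kept the call in every setting that kept the threshold and 5 lost it in at least one. Genes that were not called changed sign near 0 in some settings. Cdh5 (reported 0.03) went to -0.01 with upper-quartile factors and -0.01 to 0.09 with 1 library left out. Ciita (reported 0.11) went to -0.08 to 0.41 with 1 library left out. Nfkb1 (reported -0.06) went to 0.00 with both libraries left out. Oas2 (reported 0.03) went to -0.02 with upper-quartile factors and -0.05 with both libraries left out and -0.05 to 0.20 with 1 library left out. Tnnt2 (reported 0.03) went to -0.02 with upper-quartile factors and -0.01 with both libraries left out and -0.02 to 0.07 with 1 library left out. mt-Co1 (reported 0.02) went to -0.02 with upper-quartile factors and -0.04 to 0.09 with 1 library left out. A low count limits single genes: of 5263 tested genes with a mean under 1 CPM, 357 were called higher and 357 lower, and with counts divided by 4 197 and 228 of these kept the call.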

Other observations

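Iron, antioxidant and immediate early genes, not described above, changed in the same hearts. In the iron list 9 of 15 rose and 3 fell. Fth1, the ferritin heavy chain that stores iron, went from 849, 758, 818 and 704 CPM to 1358, 1339.7, 1171 and 1154 CPM (0.68 ± 0.11 SE). Tfrc, the transferrin receptor that imports iron, fell from 81.4, 55.7, 40.2 and 103 CPM to 18.7, 24.8, 24.4 and 23.8 CPM (-1.61 ± 0.30 SE). Cp, the ferroxidase ceruloplasmin, was at 89.8, 69.3, 73.2 and 74.5 CPM after PBS and 293, 331, 314 and 259 CPM after LPS. The groups did not overlap in these genes. Antioxidant genes of the Nrf2 programme rose in 13 of 23 cases. Txnrd1, which reduces thioredoxin, was at 50.6, 57.5, 77.6 and 61.5 CPM after PBS and 154, 171, 184 and 141 CPM after LPS (1.40 ± 0.16 SE), and Gclm, of glutathione synthesis, rose by 1.38 ± 0.18 SE. Sod2, the mitochondrial superoxide dismutase gene, fell by 0.23 ± 0.06 SE. Immediate early genes rose in 13 of 22 cases. Zfp36, whose product destroys cytokine messenger RNAs, was at 26.6, 27.9, 23.3 and 40.7 CPM after PBS and 98.5, 74.6, 91.5 and 77.4 CPM after LPS (1.53 ± 0.17 SE). Junb, of the AP-1 factors, was at 21.4, 17.8, 24.7 and 69.0 CPM after PBS and 172, 161, 154 and 146 CPM after LPS, with PBS replicate 4 again the highest PBS library.

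Genes of ketone and branched-chain amino acid use fell more often than they rose, and many of those of cell survival and death rose. Of 21 branched-chain genes 10 fell and 2 rose (median -0.19), and of 10 ketone genes 5 fell and 1 rose. Oxct1, which activates ketone bodies for oxidation, fell from 805, 786, 799 and 771 CPM to 461, 521, 508 and 503 CPM (-0.67 ± 0.13 SE). Slc16a1, a monocarboxylate carrier gene, fell by 0.73 ± 0.13 SE, and Slc16a3, its relative in glycolytic cells, rose from 1.55, 2.26, 2.60 and 2.11 CPM to 19.8, 20.6, 22.1 and 25.4 CPM (3.37 ± 0.19 SE). The groups were separate in these genes. In the BCL2 and apoptosis list 14 of 24 rose, on both sides of the balance. Bcl2l1, which protects cells, was at 22.7, 22.3, 14.2 and 15.8 CPM after PBS and 195, 162, 74.0 and 122 CPM after LPS (2.88 ± 0.35 SE), and Bax, which opens mitochondria to apoptosis, rose by 1.21 ± 0.12 SE. Cdkn1a, the cell cycle inhibitor p21, was at 94.8, 153, 83.4 and 118 CPM after PBS and 383, 441, 445 and 323 CPM after LPS (1.83 ± 0.19 SE). Hypoxia-inducible genes split, 9 higher and 8 lower of 24, with Hif3a higher (2.39 ± 0.47 SE) and Egln3 lower (-1.38 ± 0.14 SE).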
